A study of Homo sapiens with 6 samples.

Results

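The replication-dependent histone genes are the copies that supply histones during DNA replication, and they were followed here in the androgen-responsive human prostate cancer line LNCaP. Members were chosen by name: every gene called H2AC, H2BC, H3C or H4C with a number, and H1-1 to H1-6. This gave 61 of the 35430 genes in the deposited table, of which 6 encode the linker histone H1, 15 encode H2A, 15 encode H2B, 12 encode H3 and 13 encode H4. Chromosome 6 holds 50 of them and chromosome 1 holds 11. There were 3 libraries from control cells, and 3 from cells exposed to 0.5 µM palbociclib for 1 week. Palbociclib inhibits CDK4 and CDK6, kinases that drive cells from G1 into S phase. No treatment, dose or time is given for the controls, and nothing in the labels says that the libraries came from separate cultures, so p-values measure the spread between these libraries only, which may be technical.

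Core histones H2A, H2B, H3 and H4 form the nucleosome, and H1 binds the linker DNA between nucleosomes. Replication-dependent histone genes are normally transcribed in S phase, in a nuclear body organised by NPAT. Their mRNAs are unusual among those of animals: they are cut just behind a short stem-loop bound by SLBP and carry no poly(A) tail, and they are degraded when DNA synthesis stops. Polyadenylated forms of several of these genes are also known, mainly from differentiated or non-dividing cells. The libraries here were made by oligo-dT selection, per the labels' protocols, which captures RNA through its poly(A) tail. Levels below are therefore levels in poly(A)-selected RNA, and stem-loop-ended mRNA was not measured as such.

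The stem-loop is the feature these genes share in their DNA. The search, made with GENCODE annotation on the hg38 genome, looked in the first 100 bases after the stop codon. A match was found for 59 of the 61 members, the exceptions being H3C6 and H4C13, and for 5 of 2611 other coding genes on the same 2 chromosomes (0.191%). The forms below are written 5′ to 3′ on the strand of the gene, with the loop of 4 bases in capitals between the arms of the stem. They are shown because they differ at the loop and in the arms, and each is named by a gene described in the results.
H2BC21, on the minus strand at chr1:149886188-149886203, the form of 35 members: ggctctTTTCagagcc
H2BC12, on the minus strand at chr6:27146366-27146381, the form of 9 members: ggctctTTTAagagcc
H4C8, on the minus strand at chr6:26285131-26285146, the form of 8 members: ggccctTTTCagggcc
H4C15, on the minus strand at chr1:149860769-149860784, the form of 4 members: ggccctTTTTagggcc
H2AC20, on the plus strand at chr1:149887391-149887406, found once: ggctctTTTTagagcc
H2AC15, on the minus strand at chr6:27837885-27837900, found once: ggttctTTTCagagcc
H2AC11, on the plus strand at chr6:27133515-27133530, found once: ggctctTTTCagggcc

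Libraries held from 57082715 to 78117945 estimated counts, with about 4 counts to a sequenced fragment. The LNCaP label was checked with 11 luminal prostate markers, all of which passed the filter on low counts, with KLK3 at 1304 ± 13.3 CPM (counts scaled to a common library total; SD, n = 3) in controls. Markers of blood, fibroblasts, endothelium and basal epithelium together summed to between 39.8 and 45.3 CPM in controls and between 37.2 and 41.6 CPM after palbociclib. Of their 8 tested genes, 1 was higher and 2 were lower, beside 20.1% higher and 18.5% lower over all genes tested. The median log2 fold change of these 8 was -1.10. HBB, a red cell marker, had counts in 1 library of 6, and DCN, a fibroblast marker, had counts in 2. These 2 do not stand for the list, since 8 of its 12 genes in the data passed the filter on low counts. In bulk RNA, a change in the number of cells that hold a transcript and a change in its amount per cell cannot be told apart.

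Palbociclib-treated cells had more histone RNA in the poly(A)-selected pool. In control libraries 1, 2 and 3, the members together took 0.126%, 0.123% and 0.126% of all counts. In the 3 palbociclib libraries they took 0.213%, 0.213% and 0.213%, which is 1.70 times the control mean. The groups did not overlap, and the libraries within a group lay close together. No p is given for this sum, because its members were chosen with results of these data known. With TMM scaling, which corrects library totals by a trimmed mean of gene-wise ratios, the ratio was 1.84.

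Measures outside the family also differed between the groups in the same direction. A set of 10 RNAs that normally have no poly(A) tail (such as the signal recognition particle RNAs) was listed after the counts were seen. Its sum was low, at 2.74, 3.96 and 3.33 CPM in controls and 4.52, 5.05 and 4.87 CPM after palbociclib, a ratio of 1.44. Of the 4 that could be tested, 1 was higher, beside 20.1% of all genes tested. Mitochondrially encoded RNAs took 5.67% to 6.15% of counts in controls and 7.05% to 7.43% after palbociclib. The 11 luminal prostate markers summed to 6178, 6124 and 6201 CPM in controls and to 9439, 9371 and 9564 CPM after palbociclib, a ratio of 1.53. Of these markers 9 were higher and 1 lower, with a median log2 fold change of 0.48. The part of these differences in the histone values was not tested.

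Each gene was tested in a fit over 21218 genes with edgeR's quasi-likelihood test on TMM-scaled counts, with p-values adjusted over all of them by the Benjamini-Hochberg method. Of the members, 47 passed the filter on low counts. Among these, 19 rose and 3 fell at an adjusted p under 0.05, and 25 did not pass. Of all genes tested, 20.1% were called higher and 18.5% lower. The median log2 fold change was 0.48 over the tested histone genes and -0.03 over all genes tested. Among 2688 tested genes with less than 1000 exon bases that are not members, 193 were higher and 196 lower, with a median of -0.04. The balance of calls over all genes depends on scaling: 52.1% of calls were higher with TMM, and 36.1% with library size alone, which put the all-gene median at -0.14.

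The 14 members outside the test had almost no reads. For 12 of them, no library exceeded the floor of 12 counts (3 fragments). They include 3 of the 6 H1 genes, H1-1, H1-3 and H1-5. The other genes at or under the floor in every library were H2AC16, H2BC9, H2BC14, H3C7, H3C8, H3C11, H4C1, H4C6 and H4C13. H3C4 reached 16 counts and H2AC12 reached 24 counts in a single library each. These members were not detectable at this depth as changed or unchanged.

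Per length, the family was dominated by a few genes. FPKM (fragments per kilobase of exon, scaled to the mapped fragments of the library) was highest for H1-2, H2BC12, H2AC18, H2AC19 and H2BC21. These 5 together summed to 866.5 ± 11.6 FPKM in controls and 1770 ± 19.7 FPKM after palbociclib (SD, n = 3), a ratio of 2.04. The other 56 members together summed to 486.6 ± 11.1 and 608.2 ± 3.69 FPKM, a ratio of 1.25. Genes were ranked by the mean over all 6 libraries, palbociclib included, which favours genes that rose. In controls alone, H2AC6 (111.7 FPKM) was above H2AC18 (98.7 FPKM) and H2BC21 (70.6 FPKM). The gap between the 2 ratios is therefore partly set by the choice, as are the counts by level below. Of the 21 members with a mean of at least 10 FPKM, 14 rose and 2 fell. Of the 17 members between 1 and 10 FPKM, 3 rose and 1 fell, beside 20.1% higher and 18.5% lower over all genes tested. Of the 23 members under 1 FPKM, 9 could be tested and 2 rose.

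**Figure D1:**
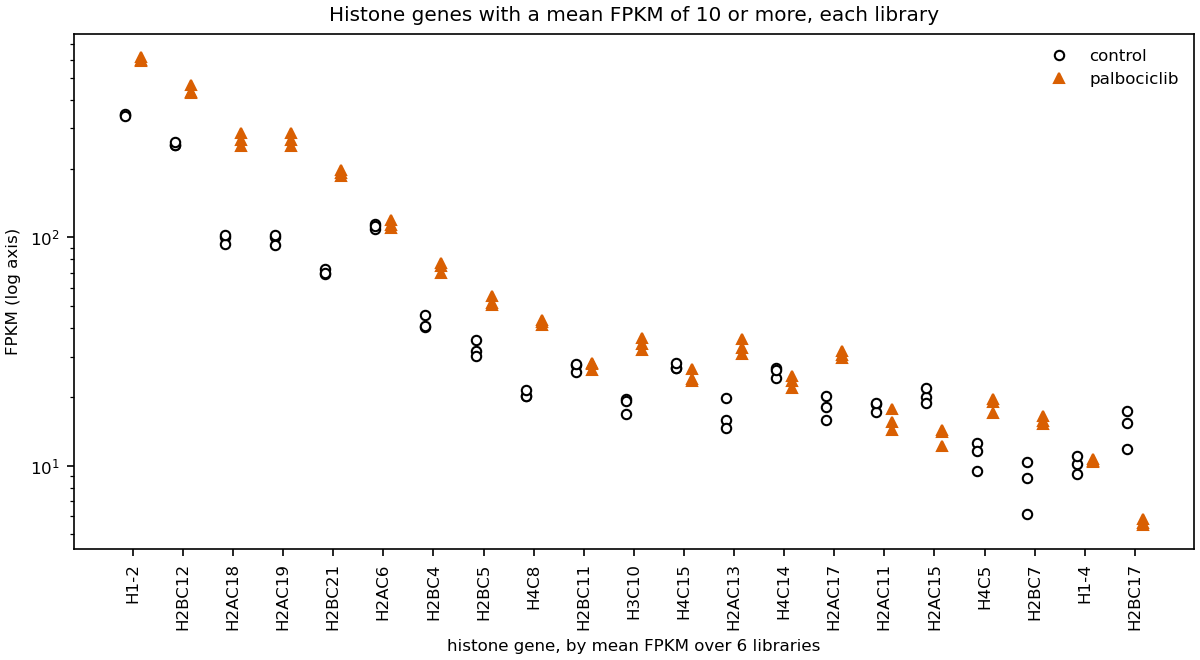
FPKM on a log axis of the 21 histone genes with a mean of 10 or more, with each library as a point (open circles, 3 controls; filled triangles, 3 palbociclib). H1-2, H2BC12, H2AC18, H2AC19 and H2BC21 lead. The groups overlap for H2AC6, H2BC11, H4C14, H2AC11 and H1-4. H2BC17, H2AC15 and, by a small margin, H4C15 are lower in every palbociclib library than in any control.

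FPKM divides by the full exon length in the annotation, which was checked by comparing counts with FPKM. For 38 of the 39 members with over 200 counts in all, the implied length was within 10% of the annotated exon length. The exception was H2BC4. Where a gene has a long or spliced annotated transcript and its reads come from a short form, its FPKM is too low. Fold changes below are on TMM-scaled CPM, which compares 1 gene between libraries and makes no comparison between genes.

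H1-2, a linker histone and the histone gene with the highest FPKM, rose. It lies on the minus strand at chr6:26055740-26056470 as a single exon. Its level was 250.4, 251.2 and 250.4 CPM in controls and 473.6, 468.6 and 483.6 CPM after palbociclib. The groups were far apart against their spread (log2 fold change 0.92 ± 0.03 SE, adjusted p = 2.63e-07). H1-4, another linker histone, was at 8.00, 8.66 and 7.24 CPM in controls and 8.82, 9.09 and 8.87 CPM after palbociclib, and did not pass (adjusted p = 0.299). H1-6, the testis-specific linker histone, did not pass either (log2 fold change -0.03 ± 0.48). The linker class in poly(A)-selected RNA was thus carried by 1 gene: the 6 H1 genes summed to 354.3 FPKM in controls, of which H1-2 made up 342.0, 345.5 and 341.1 FPKM in the 3 libraries.

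Of 13 H2A genes tested, 6 rose and 2 fell, beside 20.1% higher and 18.5% lower over all genes tested. Their log2 fold changes ran from -0.99 to 1.55. H2AC18 and H2AC19 are near-identical copies on opposite strands of chromosome 1, at chr1:149842218-149842750 and chr1:149851061-149851594, so reads cannot be assigned between them. They are described as 1 measurement, although every count and sum of genes here holds both. H2AC18 was at 53.5, 49.3 and 54.9 CPM in controls and 164.9, 153.5 and 144.1 CPM after palbociclib, a 2.93-fold rise (log2 fold change 1.55 ± 0.06, adjusted p = 4.67e-07). Every palbociclib library was above every control library.

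H2AC6, the H2A gene with the next highest mean FPKM over all 6 libraries, moved little. It was at 191.4, 180.7 and 186.9 CPM in controls and 198.9, 202.8 and 213.8 CPM after palbociclib. The call (log2 fold change 0.14 ± 0.04, adjusted p = 0.0284) was lost in 8 of 15 alternatives. With library size alone the difference was 0.03 (adjusted p = 0.642), and leaving out control library 2, palbociclib library 2 or palbociclib library 3 gave adjusted p-values of 0.0948, 0.0654 and 0.0872. H2AC13, H2AC17 and H2AC8 rose, with log2 fold changes of 1.09 ± 0.13, 0.87 ± 0.11 and 0.96 ± 0.25. H2AC13 shares 61.3% of its 75-base stretches with H2AC14, so its reads are uncertain. H2AC8 did not pass without palbociclib library 1 (adjusted p = 0.0609).

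Both H2A falls were in genes of low or moderate level. H2AC15, on the minus strand at chr6:27837880-27838375, fell from 9.98, 9.30 and 10.9 CPM to 7.55, 6.53 and 7.67 CPM (log2 fold change -0.47 ± 0.12, adjusted p = 0.0136). The groups did not overlap, but without palbociclib library 2 the adjusted p was 0.0553. H2AC20, on the plus strand at chr1:149886918-149887411, fell from 1.39, 1.11 and 0.909 CPM to 0.519, 0.587 and 0.616 CPM (log2 fold change -0.99 ± 0.30, adjusted p = 0.0273). Its groups did not overlap either. The H2AC20 call rests on few reads and was lost in 6 of 14 alternatives, among them leaving out any library other than control library 3, with adjusted p-values up to 0.114.

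H2B was the type with the largest summed ratio in CPM, at 419.4 ± 6.60 in controls and 886.4 ± 8.60 after palbociclib, or 2.11-fold. Of 13 H2B genes tested, 7 rose and 1 fell, beside 20.1% higher and 18.5% lower over all genes tested. H2BC21, on the minus strand at chr1:149884459-149886682, was at 162.3, 153.2 and 155.6 CPM in controls and 459.3, 472.5 and 443.9 CPM after palbociclib. This 2.92-fold rise (log2 fold change 1.55 ± 0.04) had the lowest adjusted p of all members, 6.75e-08. Its annotated transcript is a single exon of 2224 bases and runs well beyond the stem-loop printed above.

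H2BC12, at chr6:27146361-27146855, was at 126.1, 124.5 and 129.5 CPM in controls and 230.7, 229.6 and 246.5 CPM after palbociclib (log2 fold change 0.89 ± 0.04, adjusted p = 9.71e-07). It shares 39.0% of its 75-base stretches with another annotated gene, so some of its reads could be assigned to either. H2BC4 was at 29.2, 29.4 and 33.0 CPM in controls and 54.7, 58.4 and 60.2 CPM after palbociclib (log2 fold change 0.92 ± 0.07, adjusted p = 1.20e-05). It overlaps a gene on the other strand over 430 bases, and the sources used here do not say whether strand was kept. H2BC5 went from 27.3, 30.3 and 26.2 CPM to 47.1, 48.0 and 51.1 CPM (log2 fold change 0.80 ± 0.07, adjusted p = 3.20e-05).

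In each of these genes the 3 palbociclib libraries lay above all 3 controls. H2BC7 and H2BC18 rose by 1.01 ± 0.19 and 0.52 ± 0.10 on the log2 scale, and H2BC18 has both a partial copy (27.7% of its 75-base stretches) and an overlapping gene on the other strand. H2BC11 was at 29.0, 26.7 and 29.3 CPM in controls and 31.7, 29.6 and 31.4 CPM after palbociclib and did not pass (adjusted p = 0.174).

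H2BC3 had 0, 1 and 6 counts in controls and 22, 17 and 21 counts after palbociclib. Its controls were all under the floor. The fitted log2 fold change of 3.05 ± 1.00 (adjusted p = 0.0403) depends on the prior count and is no bound, and the call was lost in 7 of 13 alternatives, including leaving out any library other than control library 3. Adjusted p-values then reached 0.135. H2BC17, on the plus strand at chr6:27893425-27893891, was the clearest fall in the family. It was at 5.52, 7.15 and 8.13 CPM in controls and 2.83, 2.95 and 2.76 CPM after palbociclib, 2.43-fold lower (log2 fold change -1.28 ± 0.17, adjusted p = 4.13e-04). That call held in all 15 alternatives.

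H3 genes had low levels, except H3C10 at a mean of 26.3 FPKM over all 6 libraries. Of 8 H3 genes tested, 2 rose, beside 20.1% of all genes tested. H3C10, on the plus strand at chr6:27810051-27811300, was at 24.5, 21.0 and 24.1 CPM in controls and 43.4, 48.6 and 45.7 CPM after palbociclib (log2 fold change 0.99 ± 0.08, adjusted p = 1.87e-05). H3C2 rose by 1.05 ± 0.20 on the log2 scale. The H3 genes of chromosome 1 stood apart through a single library. H3C14, an almost exact copy of H3C15, was at 3.35, 2.45 and 2.50 CPM in controls, at 3.04 and 2.66 CPM in palbociclib libraries 1 and 2, and at 0.686 CPM in palbociclib library 3. H3C13 was at 3.78 and 3.12 CPM in the first and second palbociclib libraries and at 1.28 CPM in palbociclib library 3. None of these 3 genes passed, with or without that library: without it the log2 fold changes were 0.04 for H3C14, 0.03 for H3C15 and 0.53 for H3C13, against -0.37, -0.39 and 0.19 with it.

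H4 genes encode the same protein from many copies, and their transcripts did not move together. Of 10 tested, 3 rose, beside 20.1% of all genes tested. H4C8, at chr6:26277609-26285638, was at 43.8, 43.5 and 46.6 CPM in controls and 99.5, 96.2 and 101.4 CPM after palbociclib, a 2.22-fold rise (log2 fold change 1.15 ± 0.05, adjusted p = 4.87e-07). H4C15 of chromosome 1 was at 50.5, 49.8 and 53.2 CPM in controls and 48.6, 47.6 and 53.5 CPM after palbociclib (log2 fold change -0.04 ± 0.06, adjusted p = 0.665). Its groups overlapped in CPM, and so did those of its near-identical copy H4C14 (-0.03 ± 0.06). In FPKM, H4C15 was at 26.9, 26.6 and 28.2 in controls and slightly lower, at 23.9, 23.5 and 26.5, after palbociclib.

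H4C5 rose by 0.83 ± 0.14 on the log2 scale. H4C2 had 13, 11 and 4 counts in controls and 75, 21 and 26 counts after palbociclib. Its call (log2 fold change 2.13 ± 0.63, adjusted p = 0.0257) was lost in 4 of 13 alternatives, among them leaving out control library 1, control library 3 or palbociclib library 1, with adjusted p-values of 0.0647, 0.0658 and 0.164. Summed over all genes of a type, FPKM after palbociclib was 1.73 times the control for H1, 1.93 for H2A, 1.76 for H2B, 1.40 for H3 and 1.28 for H4. These sums follow their few leading genes, and differences between types were not tested.

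**Figure D2:**
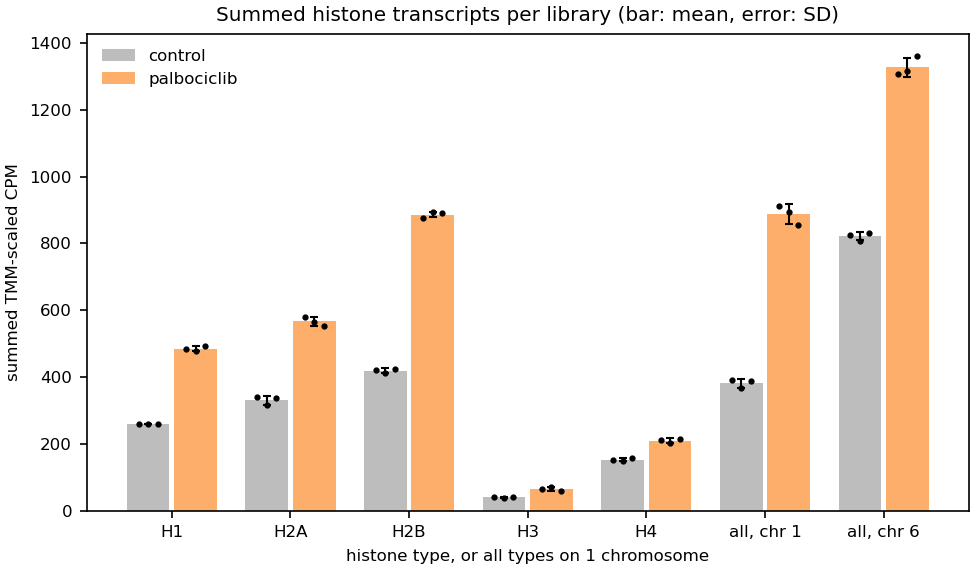
Summed TMM-scaled CPM by histone type over both chromosomes, and over all types on chromosome 1 or 6 (bars, mean of 3 libraries; error bars, SD; dots, libraries). Each palbociclib bar is above its control, from 2.11-fold for H2B to 1.37-fold for H4, and chromosome 1 has the larger ratio of the 2 chromosomes, 2.32 against 1.62.

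The members lie in 4 groups on the genome when genes more than 200 kb apart are separated. The chromosome 1 group spans 105.3 kb (chr1:149782689-149887965) and holds 11 members. Chromosome 6 has a first group of 29 members over 268.6 kb (chr6:26017032-26285638), a middle group of 5 members over 21.7 kb (chr6:27125897-27147562) and a last group of 16 members over 86.4 kb (chr6:27807479-27893891). The first chromosome 6 group had 11 rises and 10 genes that did not pass among 21 tested, with a median log2 fold change of 0.83. The next along had 1 rise among 4, and the last had 3 rises and 2 falls among 11, with a median of 0.16. Over all genes tested, 20.1% were called higher and 18.5% lower, and differences between the groups were not tested.

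Chromosome 1 combined the largest rises that held under every alternative with neighbours that did not pass. All 11 of its members were tested, and 4 rose (H2BC18, H2BC21 and the copies H2AC18 and H2AC19, which are not independent), while 1 fell (H2AC20). The median was -0.03, yet the summed CPM went from 382.0 ± 13.2 to 887.4 ± 29.5, or 2.32-fold. The 50 chromosome 6 members summed to 821.3 ± 12.0 and 1326 ± 28.7 CPM, or 1.62-fold. They had 15 rises and 2 falls among 36 tested and a median of 0.60. The shares over all genes tested were 20.1% higher and 18.5% lower. Count and sum thus rank the chromosomes differently, because H2AC18, H2AC19 and H2BC21 made up most of the chromosome 1 sum.

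**Figure D3:**
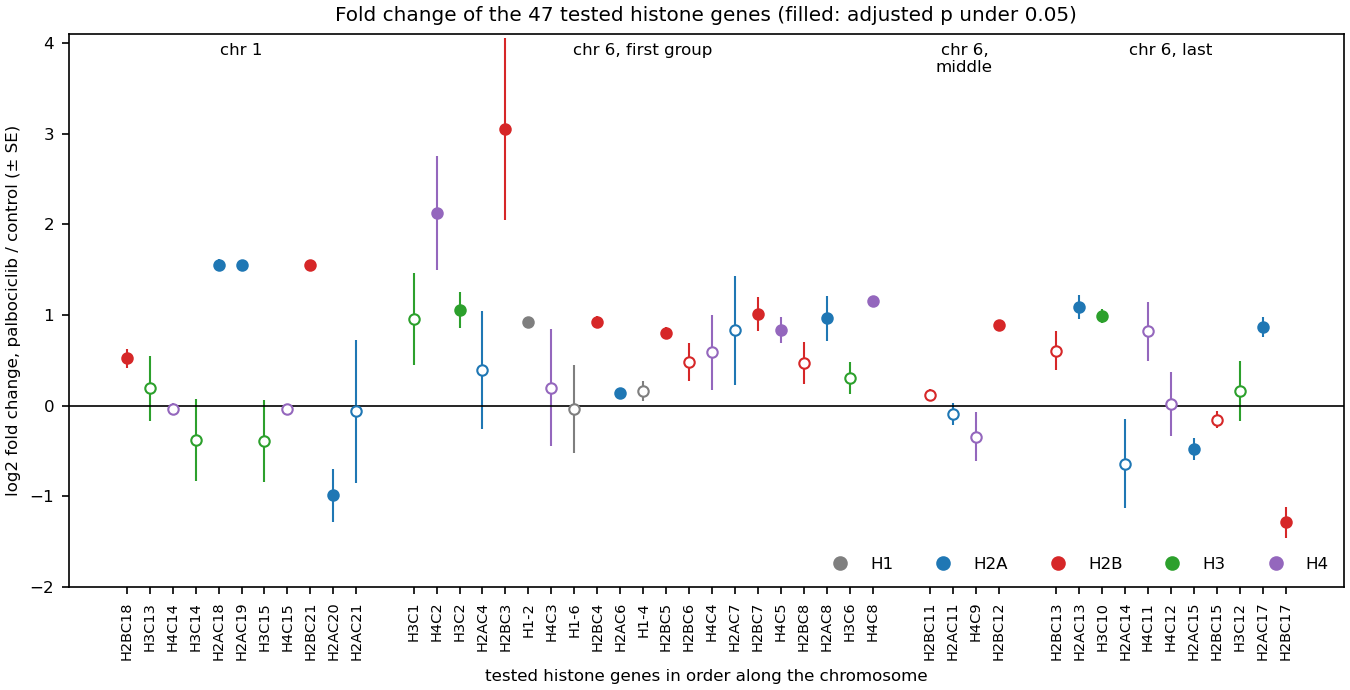
Log2 fold change (± SE) of the 47 tested histone genes in order along chromosome 1 and the 3 chromosome 6 groups, coloured by type and filled where the adjusted p was under 0.05. The first chromosome 6 group holds 11 rises, and H2BC21 at 1.55 and H2AC20 at -0.99 lie side by side on chromosome 1, as do H2AC17 at 0.87 and H2BC17 at -1.28 at the end of the last group.

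Genes that lie between the histone genes were used as a local comparison. Of 49 non-histone genes between the first and last member on chromosome 6, 29 were tested. Of these, 6 were higher and 3 lower, beside 20.1% and 18.5% of all genes tested, and the median was 0.02. Among them ZNF391, a zinc finger gene, fell (log2 fold change -0.75 ± 0.10) and BTN3A1, a butyrophilin, rose (0.42 ± 0.10).

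H2A and H2B genes often sit head to head and are transcribed outward from a shared interval. The family has 10 such pairs under 500 bases apart, and in 8 of them both genes were tested. Partners went in opposite directions, each past the threshold, in 2 pairs. In the first, H2BC21 rose (1.55 ± 0.04) and H2AC20 fell (-0.99 ± 0.30), with the limit that the H2AC20 call rests on few reads. It was lost in 6 of 14 alternatives. In the second, H2BC17 fell (-1.28 ± 0.17) and H2AC17 rose (0.87 ± 0.11), with the limit that H2AC17 overlaps H3C12 on the same strand and shares 65.9% of its 75-base stretches with it.

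The intervals of both pairs are printed here in full, on the plus strand of hg38. The 2 genes of each pair share this sequence and were called in opposite directions, with the limits given above. Capitals mark 3 motifs on either strand: the CCAAT box, searched by the letters CCAAT; the TATA box, searched by the letters TATAA; and the octamer known from H2B promoters, searched by the letters ATTTGCAT. Where matches overlap their capitals run together.
H2BC21 and H2AC20, chr1:149886683-149886917, with H2BC21 to the left on the minus strand: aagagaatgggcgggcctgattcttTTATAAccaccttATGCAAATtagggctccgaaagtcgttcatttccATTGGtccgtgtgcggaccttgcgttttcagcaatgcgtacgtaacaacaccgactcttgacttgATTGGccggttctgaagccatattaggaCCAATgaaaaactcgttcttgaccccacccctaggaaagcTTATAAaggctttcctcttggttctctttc
H2AC17 and H2BC17, chr6:27893186-27893424, with H2AC17 to the left on the minus strand: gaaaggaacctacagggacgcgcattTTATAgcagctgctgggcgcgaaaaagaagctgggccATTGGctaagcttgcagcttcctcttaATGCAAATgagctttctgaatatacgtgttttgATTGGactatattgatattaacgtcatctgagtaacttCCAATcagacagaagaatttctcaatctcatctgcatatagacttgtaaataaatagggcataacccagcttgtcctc

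Both intervals hold 3 CCAAT matches and 1 octamer. The first has 4 TATAA matches, with overlapping matches at both ends, and the second has 1, at the H2AC17 end. A match is a description of letters and not of a bound site. In RefSeq promoters of 300 bases on the same build (250 before and 50 after the start), 56 members had an entry. CCAAT was found on either strand in 48 of these 56 against 39.7% of 27305 genes, TATAA in 53 against 24.2%, and ATTTGCAT in 23 against 2.19%. The octamer was in 12 of 15 H2B and 10 of 14 H2A promoters, in 1 of 10 H3 promoters and in none of 11 H4 or 6 H1 promoters. CCAAT was in all 15 H2B and all 14 H2A promoters but in 3 of 11 H4 promoters.

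In the remaining pairs no partners were called in opposite directions. H2BC4 rose by 0.92 while H2AC6 differed by 0.14 across an interval of 218 bases. H2BC7 rose, and its partner H2AC7 had a fold change of 0.83 ± 0.60 on the log2 scale that did not pass. H2AC8 and H2AC13 rose, beside H2BC8 at 0.48 ± 0.23 and H2BC13 at 0.61 ± 0.21, neither of which passed. H2BC11 and H2AC11 both missed the threshold (0.12 and -0.09), and H2AC15 fell beside H2BC15 at -0.15 ± 0.09. H2BC12 rose beside H2AC12, which had too few reads to test. Differences between partners were not tested as such.

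**Figure D4:**
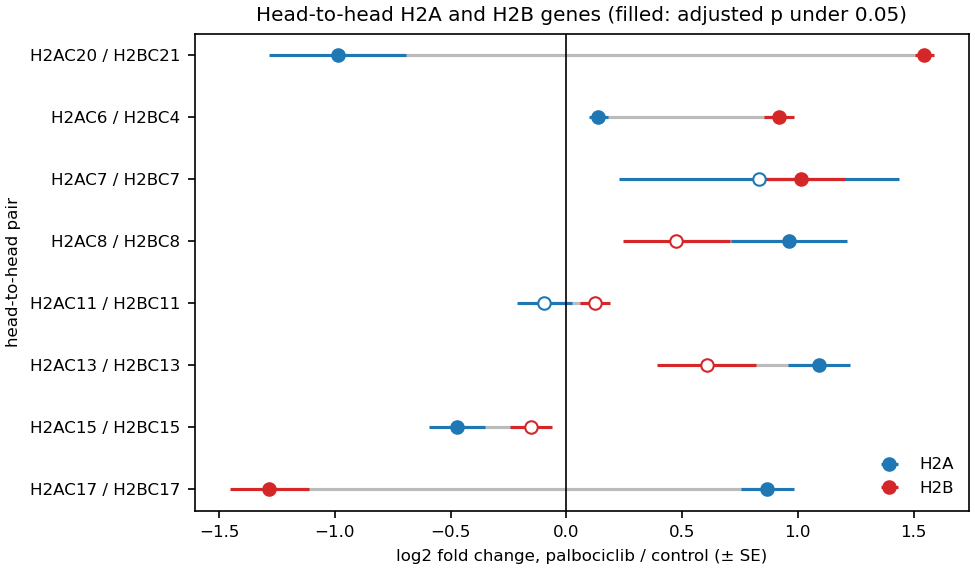
Log2 fold change (± SE) of the H2A gene (blue) and the H2B gene (red) in the 8 head-to-head pairs with both genes tested, filled where the adjusted p was under 0.05. In the top pair H2BC21 is at 1.55 and H2AC20 at -0.99, and in the bottom pair H2AC17 is at 0.87 and H2BC17 at -1.28, while the other pairs lie closer together.

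Annotated transcript form and the 3′ end were compared with the calls, as a description. The annotation gives 14 members a transcript over 1000 bases or with more than 1 exon, and 7 of these rose and 7 did not pass, with a median of 0.39. Of the 33 tested members with short single-exon transcripts only, 12 rose and 3 fell, with a median of 0.59. A poly(A) signal on the sense strand, either the common form AATAAA or its variant with the letters ATTAAA, lies within 200 bases after the stop codon in 9 members, against 591 of 2611 other coding genes on the same chromosomes (22.6%). Of these 9 members, 5 rose and 4 did not pass, with a median of 0.82. Of the 38 other tested members, 14 rose and 3 fell, with a median of 0.25. All these counts stand beside 20.1% higher and 18.5% lower over all genes tested. The 9 members include H2AC18 and H2AC19, which both rose and are described here as 1 measurement. They also include H4C11 and H4C12, near-identical copies of each other. The 9 are thus not independent, and the difference in medians was not tested.

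By loop, 4 of 7 tested members with TTTA rose, among them H2BC12, H2BC4, H2BC5 and H2BC7. Of 34 with TTTC, 15 rose and 2 fell. Of 5 with TTTT, H2AC20 fell and the others, H4C14 and H4C15 among them, did not pass. For comparison, 20.1% of all genes tested were called higher and 18.5% lower. Loop form goes with histone type and chromosome, so these counts cannot be told apart from those by type. Whether reads covered the stem-loop or a tail beyond it was not measured, since the files hold 1 value per gene.

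Genes that make and process histone mRNA were compared next. Of 22 genes for histone transcription and 3′ end processing, 4 rose and 2 fell, with a median of 0.01. Over all genes tested, 20.1% were called higher and 18.5% lower, and each list below is to be read beside these shares. SLBP, which binds the stem-loop, was at 43.5, 45.5 and 46.2 CPM in controls and 49.8, 47.5 and 45.6 CPM after palbociclib (log2 fold change 0.08 ± 0.05, adjusted p = 0.270). NPAT, the coactivator of histone genes, did not pass (0.18 ± 0.08, adjusted p = 0.131). Neither did CASP8AP2, a component of the histone locus body (-0.11 ± 0.11), nor HINFP, an activator of H4 genes (-0.03 ± 0.08). LSM11, a subunit specific to the U7 particle that cuts histone pre-mRNA, fell (-0.46 ± 0.13), whereas its partner LSM10 rose (0.19 ± 0.05). SNRPD3 (0.47 ± 0.04), a protein that the U7 particle shares with spliceosomal particles, CSTF2T (0.37 ± 0.05) and NCBP2 (0.12 ± 0.04) also rose. NELFE, a subunit of a pausing factor, fell (-0.42 ± 0.06). In FPKM, however, the groups of LSM10 and of NCBP2 overlapped. NCBP2 was at 23.9, 23.1 and 23.9 FPKM in controls and 23.8, 23.5 and 24.1 FPKM after palbociclib.

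Of 18 genes for histone mRNA decay, 5 rose and 2 fell, with a median of 0.10, beside 20.1% and 18.5% of all genes tested. ERI1, the nuclease that trims the histone stem-loop, did not pass (-0.07 ± 0.07, adjusted p = 0.467). TUT7, which adds uridines to RNA ends, rose by 0.59 ± 0.05, and LSM3, of the ring that binds such ends, rose by 0.85 ± 0.09. TENT4B (0.59 ± 0.05), a non-canonical poly(A) polymerase, and UPF1 (0.24 ± 0.05), a helicase of RNA decay, rose, and the decapping genes DCP1A (-0.25 ± 0.05) and DCP2 (-0.22 ± 0.06) fell. Of 16 genes of the poly(A) machinery, 5 rose and 5 fell. PAPOLA, the main nuclear poly(A) polymerase, rose by 0.34 ± 0.04 and CSTF3 by 0.35 ± 0.05. The cleavage factor genes CPSF4 (-0.53 ± 0.06), NUDT21 (-0.39 ± 0.05) and CPSF7 (-0.35 ± 0.04) fell, as did PABPN1 (-0.30 ± 0.06), a nuclear poly(A)-binding protein.

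DNA synthesis genes were lower more often than higher. Of 48 tested, 9 rose and 20 fell, with a median of -0.09. PRIM1 (-1.23 ± 0.06), the catalytic primase subunit, CDT1 (-0.86 ± 0.08), a replication licensing factor, RRM2 (-0.65 ± 0.05), a ribonucleotide reductase subunit, MCM7 (-0.56 ± 0.05), of the replicative helicase, and TYMS (-0.49 ± 0.04), which makes thymidylate, fell. PRIM2, the other primase subunit, rose (0.88 ± 0.06). CCNE1, a cyclin of CDK2, was at 13.1, 11.7 and 9.69 CPM in controls and 19.98, 19.8 and 21.4 CPM after palbociclib (0.83 ± 0.12, adjusted p = 6.10e-04), and CCNE2 did not pass (0.07 ± 0.12, adjusted p = 0.682).

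Histone variants outside the replication-dependent set are mostly made from polyadenylated mRNA and not tied to S phase. Of 13 tested, 2 rose and 7 fell, with a median of -0.19. H2AX, which is phosphorylated at DNA breaks and whose mRNA is known in both stem-loop and polyadenylated forms, was at 94.3, 114.5 and 109.9 CPM in controls and 61.3, 45.3 and 24.7 CPM after palbociclib (-1.27 ± 0.26, adjusted p = 0.00472). CENPA, the centromeric H3, fell by 1.00 and MACROH2A2 fell by 0.85 on the log2 scale, and H2AZ2 fell by 0.24. H3-3A, 1 of the 2 genes for H3.3, rose (0.35 ± 0.03).

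Of 20 genes for histone chaperones and histone supply, 6 rose and 6 fell, with a median of 0.00. Over all genes tested, 20.1% were higher and 18.5% lower. CHAF1B (-0.65 ± 0.07), of the assembly factor that acts at replication forks, SSRP1 (-0.50 ± 0.04), of the FACT chaperone, and HJURP (-0.49 ± 0.06), the chaperone of CENPA, fell. SUPT16H, the other FACT subunit, rose (0.27 ± 0.04), as did NAP1L4 (0.54 ± 0.04), a chaperone of H2A and H2B, and SUPT6H (0.30 ± 0.04).

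**Figure D5:**
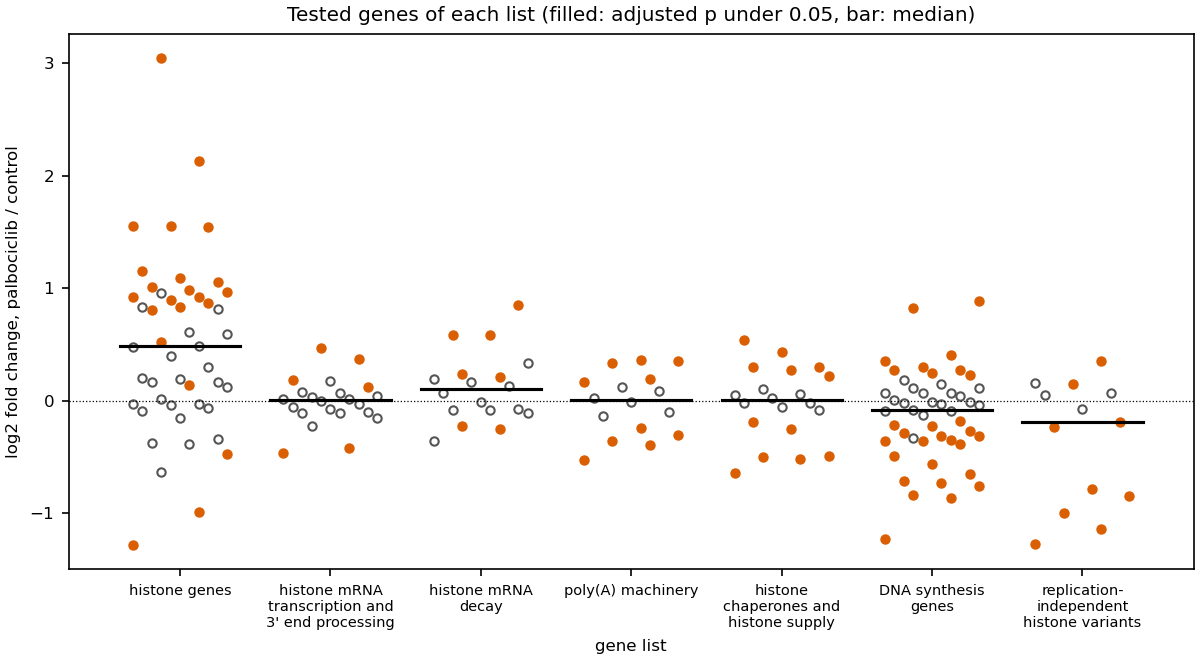
Log2 fold change of each tested gene in the histone family and in 6 lists (filled, adjusted p under 0.05; bar, median). The median of the 47 histone genes is 0.48, and the medians of the lists lie between -0.19 for the replication-independent variants and 0.10 for histone mRNA decay.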

How the data were processed

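The submitters' processing notes name cutadapt 1.9, HISAT2 2.0.4 with the hg38 build, StringTie 1.3.4d and edgeR. The series' design text names fastp for trimming. No source used here gives the annotation release. The authors deposited estimated counts and FPKM for 35430 genes. The counts were already whole numbers, and a fragment adds about 4. FPKM as deposited by the authors was used for levels, sums and an alternative test. Coordinates and transcripts came from GENCODE 44, whose coordinates equalled the deposited ones for 57 of the 61 members.

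All 6 libraries entered 1 fit: filterByExpr (minimum count 10, minimum total 15), TMM, and the quasi-likelihood F-test of edgeR 4.0.16, with Benjamini-Hochberg adjustment over 21218 genes and a threshold of 0.05. SE was taken as |log2 fold change| over the square root of F. The step was tested on simulated data. A near-identical copy shares at least 20% of 75-base stretches. The floor was 12 counts per library, and floors cover counting error only. Pairs of libraries within a group differed beyond sampling noise (chi-square per degree of freedom 3.21 to 5.72). The number of columns of per-sample values left without a sample was 0.

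The members and lists were chosen with earlier results of these data known, and the list of RNAs without a poly(A) tail after seeing the counts. Values in every library are given for the 12 members with the highest mean FPKM, the 6 largest rises and all falls. From each list come up to 6 genes with the lowest adjusted p, plus SLBP, NPAT, CASP8AP2, ERI1, HINFP, CCNE1 and CCNE2. A gene that this rule names is not reported here. H1-4, H3C13 and H3C14 were given by library after their values were seen. Alternatives were other scalings, filters, count scales and units, DESeq2 1.42.0, limma 3.58.1 on FPKM, a replicate block, and each library left out.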

Additional observations from a re-analysis of the deposited data

How the results depend on the processing

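Between 16 and 20 members rose under the other scalings, tests, filters and units and with any library left out, and 12 of 28 rose without members that have a near-identical copy or an overlapping gene, where fewer genes enter. Falls ran from 1 (without palbociclib library 2) to 3 with a library left out and reached 4 with library size alone and on FPKM. The median log2 fold change of 0.48 was 0.37 with library size alone, 0.35 on log2(FPKM + 0.1), 0.23 on log2(FPKM + 1), 0.55 with a mean of at least 1 CPM, 0.58 without a filter, 0.53 without ambiguous members, and 0.47 to 0.55 with a library left out; the cause was not tested. The summed ratio of 1.70 was 1.84 in TMM-scaled CPM and 1.76 in FPKM. Of the 19 rises, 15 held under every alternative run. H2BC13 passed under 6 of 15 alternatives. Values near 0 changed sign for H3C13 on log2(FPKM + 0.1) (-0.041) and log2(FPKM + 1) (-0.017). With a library left out, values ran from -0.12 to 0.53 for H3C13, from -0.081 to 0.010 for H4C14, from -0.72 to 0.042 for H3C14 and from -0.74 to 0.029 for H3C15. Same-numbered libraries did not deviate together (correlations -0.0079, -0.0341 and -0.0311), so the numbers were not taken as pairs, and a fit with a replicate block gave 17 rises, 2 falls and a median of 0.48. In that fit H4C2, H2AC6, H2BC3 and H2AC20 missed the threshold (adjusted p of 0.0502, 0.0585, 0.059 and 0.0725) and H2BC13 passed it (0.0247). With about 4 counts to a fragment, genes under about 1 CPM rest on few fragments.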

Other observations

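Palbociclib library 3 was the lowest of its group for several histone genes, chosen here after their values were seen. Besides H3C13, H3C14 and H3C15, they include H4C11, at 2.20, 2.35 and 1.35 CPM in the 3 palbociclib libraries, and H4C12, at 1.31, 0.911 and 0.545 CPM. Among the replication-independent variants, H1-10 was at 28.2, 28.9 and 16.98 CPM, below its controls in each library (44.6, 41.4 and 41.6 CPM), and H2AX was also lowest there. Of the 5 genes with the highest FPKM, H2AC18, H2AC19 and H2BC21 were also lowest in that library within the palbociclib group, by smaller margins (H2BC21 was at 459.3, 472.5 and 443.9 CPM), and H1-2 and H2BC12 were highest in it. No label sets that library apart, and the cause was not tested.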
